A study of Mus musculus with 12 samples.

Results

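The genes described here are 41 mouse genes that drive, carry out or restrain the cell cycle and DNA replication. They were taken by gene symbol for their known roles, with earlier results of these data known, and all 41 were present in both expression tables, among 16703 genes measured in whole liver and 16273 in liver sinusoidal endothelial cells (LSEC). By role, 11 act in DNA replication, 20 in mitosis or its timing, 6 are G1 cyclins or transcription factors of the cycle, and 4 encode inhibitors of cyclin-dependent kinases (CDKs). The study sequenced RNA from C57BL/6 mice with diet-induced nonalcoholic steatohepatitis (NASH), a fatty liver disease with inflammation and cell injury, and from mice on chow. Its groups were NASH liver, chow liver, NASH LSEC and chow LSEC, with 3 libraries each and no genetic change named in any group. The protocol text in the labels gives 36 weeks of a NASH diet and is attached to every sample, chow samples included. Neither sex nor age is stated. LSEC are the endothelial cells that line the sinusoids. Per the labels' description they were enriched with magnetic beads, first by removing CD11b-positive cells from the non-parenchymal fraction and then by collecting CD146-positive cells, so other CD146-positive cells can be among them. Whole-liver libraries were made with an unstranded TruSeq kit.

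Cells enter the cycle when D-type and E-type cyclins, with their kinases, release E2F factors, which switch on the genes of S phase. Replication origins are licensed when CDC6 helps to load the ring of MCM proteins, and ribonucleotide reductase and thymidine kinase supply the building blocks of DNA. Later in the cycle FOXM1 and related complexes switch on the mitotic genes, whose promoters often carry a CHR element and CCAAT boxes. Hepatocytes of the adult liver mostly rest outside the cycle, can re-enter it after injury or loss of tissue, and become polyploid with age in the mouse, a process in which E2F8 takes part. CDK inhibitors such as p21, encoded by Cdkn1a, hold cells back and are induced by stress through p53.

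Promoters of 6 members are shown to make these elements visible. Cdk1, Top2a and Cdc20 are mitotic genes, Mcm6 and Mcm5 are replication genes, and E2f8 is the member that was called lower in liver and higher in LSEC. The mitotic promoters shown all hold CHR letters and the replication promoters shown all hold E2F letters, while many others of each role do not. RefSeq promoter sequences of build GRCm38.p6 were found for 33 of the 41 members, with 37 promoters in all. Each run below holds the 160 bases before the RefSeq start, written 5′ to 3′ on the gene's own strand. Capitals mark letters that matched a motif on either strand, and matches may overlap. The CHR element was searched as TTTGAA and also in its variant form TTCGAA. The CCAAT box was searched by its own letters, and the E2F motif in 4 forms, namely TTTGGCGC, TTTCCCGC, TTTCGCGC and TTTGCCGC. The Cdk1 run covers chr10:69352913-69353072 on the minus strand, Top2a chr11:99024190-99024349 minus, Cdc20 chr4:118437344-118437503 minus, Mcm6 chr1:128359706-128359865 minus, Mcm5 chr8:75109349-75109508 plus and E2f8 chr7:48881597-48881756 minus. GENCODE draws the first exons of Cdk1 and Cdc20 from chr10:69352938 and chr4:118437352, so both runs reach into them. The Cdk1 CHR match 15 bases and the Cdc20 CCAAT match 8 bases before the RefSeq start lie inside these exons.
Cdk1: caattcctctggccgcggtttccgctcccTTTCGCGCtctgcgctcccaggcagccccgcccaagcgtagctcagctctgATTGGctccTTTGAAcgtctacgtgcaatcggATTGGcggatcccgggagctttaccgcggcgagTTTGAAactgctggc
Top2a: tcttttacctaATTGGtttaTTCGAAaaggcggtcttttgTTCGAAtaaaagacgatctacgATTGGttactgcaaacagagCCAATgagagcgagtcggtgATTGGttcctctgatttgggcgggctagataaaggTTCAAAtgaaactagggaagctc
Cdc20: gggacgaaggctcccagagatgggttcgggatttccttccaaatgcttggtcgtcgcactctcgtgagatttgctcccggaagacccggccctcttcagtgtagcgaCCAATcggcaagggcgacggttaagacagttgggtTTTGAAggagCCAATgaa
Mcm6: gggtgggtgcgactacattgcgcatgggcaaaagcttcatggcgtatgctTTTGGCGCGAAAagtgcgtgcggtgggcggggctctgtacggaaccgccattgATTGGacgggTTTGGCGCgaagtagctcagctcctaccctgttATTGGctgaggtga
Mcm5: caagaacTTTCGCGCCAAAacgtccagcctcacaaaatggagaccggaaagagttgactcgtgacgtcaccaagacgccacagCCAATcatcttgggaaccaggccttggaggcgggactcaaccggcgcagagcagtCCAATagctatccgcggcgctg
E2f8: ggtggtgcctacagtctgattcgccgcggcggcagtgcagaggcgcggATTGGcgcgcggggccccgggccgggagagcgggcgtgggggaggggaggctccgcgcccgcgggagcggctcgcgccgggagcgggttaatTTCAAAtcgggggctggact

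In the Cdk1 run, matches to CHR began 71 and 15 bases before the start, with CCAAT letters, read from the opposite strand, at 80 and 48 bases and E2F letters at 131 bases. Top2a had CHR letters at 140, 120 and 23 bases and CCAAT letters at 149, 98, 78 and 58 bases. Cdc20 had CHR letters at 18 bases and CCAAT letters at 53 and 8 bases. In Mcm6 the E2F letters began at 110, 106 and 47 bases, the first pair overlapping on opposite strands, and in Mcm5 an overlapping pair began at 153 and 149 bases. Both also had CCAAT letters, at 57 and 14 bases in Mcm6 and at 77 and 22 bases in Mcm5. E2f8 had CHR letters at 20 bases and CCAAT letters at 112 bases, with no E2F letters in its 250 upstream bases. Over 250 upstream bases, CHR letters were in 8 of 16 mitotic promoters (50%), in 2 of 11 replication promoters (18.2%) and in 17.1% of all 32851 RefSeq promoters. CCAAT letters were in 14 of 16 mitotic promoters (87.5%) and 9 of 11 replication promoters (81.8%), against 33.8% of all. E2F letters were in 4 of 11 replication promoters (36.4%) and 1 of 16 mitotic promoters (6.25%), against 1.86% of all. A match is a description of the letters, and no factor's binding was measured here.

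Values below are normalized reads, that is, read counts divided by 1 factor per library by the authors. Effects are log2 fold changes of NASH over chow on log2(normalized reads + 1) with their standard errors. A gene was called, and is said to have risen or fallen, when limma's Benjamini-Hochberg adjusted p over the whole table was under 0.05. Liver libraries held 47000197 to 57397720 recovered reads, and those from LSEC 18527017 to 19402863. Tissue labels fitted the markers: liver libraries summed to 3542600 to 4189400 normalized reads over 15 hepatocyte genes in NASH and 7258900 to 7905200 in chow, and LSEC libraries to 407400 to 448160 over 15 endothelial genes in NASH and 630920 to 656350 in chow. Nothing in the labels says that libraries came from separate animals, so the p-values measure only the spread between these samples. The LSEC columns carry no replicate number, and LSEC libraries are numbered by column position as names only.

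In NASH liver, 31 of the 41 members rose and 1, E2f8, fell, while 46% of all liver genes were called in either direction, 25% higher and 21% lower. The median log2 fold change of the members was 1.48, against 0.02 over all 16703 genes. Of the mitotic genes 19 of 20 rose, with a median of 1.90. Whole liver is a mixture, so fewer cells of a type and less RNA per cell cannot be told apart in these values. Replication genes rose in 6 of 11 cases with a median of 0.70, and of the 4 CDK inhibitors Cdkn1a and Cdkn2c rose. All 3 NASH livers lay above all 3 chow livers for 31 members and below them for E2f8, against 29.8% and 27.3% of all genes. Scaling libraries to equal total reads moved the log2 fold changes of all genes by a median of 0.415. With that scaling 38 members rose and none fell, beside 47.2% of all genes higher and 5.41% lower. Under that scaling 10 of 11 replication members rose, with a median of 1.12, and 20 of 20 mitotic members, with a median of 2.31. Of the 9 members not called in the main test, Mcm2, Mcm7, Pcna, Rrm2, Ccne2, Aurka and Cdkn1b rose under it, and Tk1 and Cdkn2a did not pass.

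**Figure D1:**
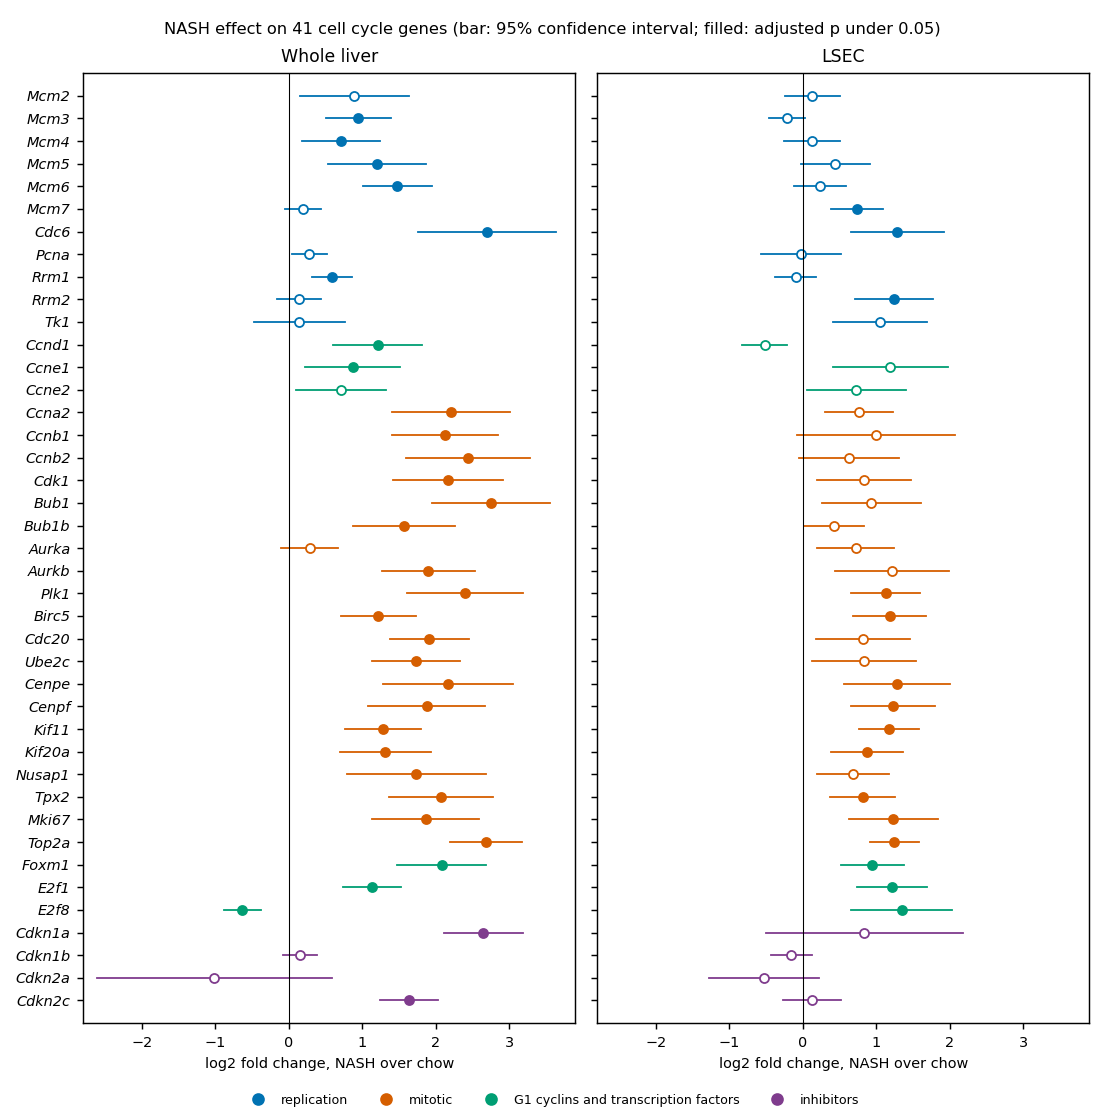
Log2 fold change of NASH over chow for the 41 members in whole liver and in LSEC, with 95% confidence intervals, coloured by role and filled where called. Mitotic genes lie right of 0 in both tissues, with 19 of 20 filled in liver and 9 of 20 in LSEC.

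Among the replication genes, the licensing factor gene Cdc6 (chr11:98907801-98923940 in mm10) had the largest liver change. Cdc6 had 66.1, 80.4 and 86.9 normalized reads in the NASH livers, against 5.93, 21.6 and 10.3 in the chow livers. Its groups did not overlap, and the log2 fold change was 2.70 ± 0.42 (limma adjusted p = 0.000709). Of the helicase subunits, Mcm6 (chr1:128331590-128359664) had 619.6, 828 and 1026 normalized reads in NASH livers and 368, 278 and 237 in chow livers, a log2 fold change of 1.48 ± 0.21 (limma adjusted p = 0.000407). Every NASH liver was above every chow liver. Mcm5, Mcm3 and Mcm4 rose by 1.20, 0.95 and 0.70 on the log2 scale. For Mcm4 the groups overlapped, and the call was lost in 4 of the 6 fits that left out 1 library, with adjusted p up to 0.142.

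The other helicase subunits did not pass in liver. Mcm2 had 408, 642 and 682 normalized reads in NASH livers and 453, 363 and 169 in chow livers, with overlapping groups and an effect of 0.89 ± 0.33 (limma adjusted p = 0.0506). It passed with DESeq2 (adjusted p = 0.0159) and with scaling to total reads (limma adjusted p = 0.00833). Mcm7 had 785, 883 and 939 in NASH livers and 789, 787 and 696 in chow livers (log2 fold change 0.20 ± 0.11). The 2 groups touched, with NASH library 1 just under the highest chow library. Exons of Mcm7 overlap those of Cops6 and Ap4m1 on the other strand by 64 and 321 bases, and Cops6 fell by 0.76 in liver, so in these unstranded libraries reads from the overlaps cannot be assigned to either gene.

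Of the 4 genes of the replication fork and of nucleotide supply, 1 was called in liver. Pcna, the sliding clamp of DNA polymerase, had 1366, 1591 and 1774 normalized reads in NASH livers, against 1299, 1295 and 1291 in chow livers. All NASH livers were higher and the chow livers lay very close together, but the effect of 0.28 ± 0.11 was not called (limma adjusted p = 0.0581), and Pcna has pseudogenes that can share its reads. Rrm1, the large subunit of ribonucleotide reductase, rose by 0.59 ± 0.12 (limma adjusted p = 0.00364). Rrm2, its small subunit, had 494, 389 and 413 in NASH livers and 412, 385 and 375 in chow livers, which overlap (log2 fold change 0.14 ± 0.13). Thymidine kinase gene Tk1 had 947, 905 and 802 in NASH livers and 486, 820.1 and 1281 in chow livers. Its chow livers spread so widely that they enclosed every NASH liver, and its sign turned to -0.22 without chow library 1. Exons of Tk1 and Afmid overlap on opposite strands by 83 bases, and Afmid, at 4070 normalized reads in NASH livers and 7090 in chow livers, fell by 0.81.

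The mitotic cyclins and their kinase rose together in NASH liver. Cdk1 (chr10:69335146-69352938), the kinase that drives entry into mitosis, had 169.8, 192 and 301 normalized reads in NASH livers, against 29.7, 47.5 and 72.8 in chow livers. The lowest NASH liver was above the highest chow liver, and the log2 fold change was 2.17 ± 0.34 (limma adjusted p = 0.000708). Its partner Ccnb2, a B-type cyclin, had 116, 96.5 and 207 in NASH livers and 21.4, 16.2 and 37.9 in chow livers, again without overlap and with an effect of 2.43 ± 0.38. Ccnb1 rose by 2.12 and Ccna2, the cyclin of S phase and G2, by 2.21. For Ccnb1 and Ccnb2 annotated pseudogenes could take or give reads, and Ccna2 shares 510 exon bases with Exosc9 on the opposite strand.

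Of the mitotic kinases and checkpoint genes, Bub1 had the largest change of any member in liver. Bub1, a kinase of the spindle checkpoint, had 44.1, 48.3 and 60.3 normalized reads in NASH livers and 7.12, 4.32 and 9.23 in chow livers, a log2 fold change of 2.76 ± 0.36 (limma adjusted p = 0.000253). With values under 10 in chow, its fold change is understated by the added 1. Plk1, a kinase of mitotic entry and exit, had 77.1, 67.4 and 110.2 in NASH livers against 9.49, 16.2 and 21.5 in chow livers (log2 fold change 2.40 ± 0.35). Aurkb, the kinase of the chromosomal passenger complex, rose by 1.90, Bub1b by 1.56, the survivin gene Birc5 by 1.22, and the anaphase-promoting complex genes Cdc20 and Ube2c by 1.91 and 1.73. Aurka, the kinase of the spindle poles, was not called in liver without scaling to total reads (limma adjusted p = 0.0133 with it), with 167, 164 and 196 in NASH livers and 132, 164 and 137 in chow livers. Its groups overlapped, and the log2 fold change was 0.28 ± 0.17 (limma adjusted p = 0.208).

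Spindle, kinetochore and chromosome genes all rose in liver, 8 of 8. Top2a (chr11:98992943-99024189), the topoisomerase that untangles chromosomes, had 302, 380.0 and 465 normalized reads in NASH livers, against 65.3, 46.4 and 63.6 in chow livers. Its lowest NASH liver was far above its highest chow liver, with a log2 fold change of 2.68 ± 0.22 and the smallest adjusted p of the members (limma, 2.11e-05). Mki67, whose protein Ki-67 is the usual stain for cycling cells, had 208, 326 and 471 in NASH livers and 67.6, 74.5 and 129 in chow livers (log2 fold change 1.86 ± 0.32). Those groups did not overlap either, and chow library 3 was the highest of the chow livers. The kinetochore genes Cenpe and Cenpf rose by 2.17 and 1.88, the kinesin genes Kif11 and Kif20a by 1.28 and 1.31, and the spindle genes Tpx2 and Nusap1 by 2.07 and 1.74. Nusap1 shares 172 exon bases with Oip5 on the opposite strand, which itself rose by 2.16, and Kif20a shares 1271 with Cdc23.

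The G1 cyclins and transcription factors were mixed in liver, with 4 of 6 higher and 1 lower. Ccnd1 (chr7:144929931-144939925), cyclin D1, had 4421, 6090.3 and 7604 normalized reads in NASH livers, against 3518, 2913 and 1616 in chow livers (log2 fold change 1.21 ± 0.27, limma adjusted p = 0.00534). The groups did not overlap, and chow library 3 was far lower than the other chow livers. Foxm1, the activator of mitotic genes, had 72.5, 76.4 and 109 in NASH livers and 20.2, 17.3 and 20.5 in chow livers, and rose by 2.08 on the log2 scale. E2f1, an activating E2F, had 293, 373 and 368 in NASH livers and 139, 147 and 186 in chow livers, and rose by 1.13. Ccne1 rose by 0.87 with overlapping groups and lost its call in 4 of the 6 fits without 1 library, with adjusted p up to 0.126, while Ccne2 had an effect of 0.71 ± 0.27 that was not called (limma adjusted p = 0.0584). On the opposite strand, Ccnd1 shares 1100 exon bases with LTO1, and Ccne2 609 with Ints8, which fell by 0.64 in liver.

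E2f8 (chr7:48866429-48881596), a repressor of E2F targets, was the member that fell in liver. It had 535, 676 and 623 normalized reads in NASH livers, against 923, 954 and 962 in chow livers. Every NASH liver was below every chow liver, and the chow livers lay close together. The log2 fold change was -0.64 ± 0.11 (limma adjusted p = 0.00144). Scaled to total reads it was -0.22 and no longer called (limma adjusted p = 0.161), so its fall depends on the scaling. Exons of E2f8 overlap those of Gm2788 on the opposite strand by 610 of 5443 bases.

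The inhibitors split in liver. Cdkn1a (chr17:29090976-29100727), which encodes p21, had 2237, 1182 and 1558 normalized reads in NASH livers, against 246, 336 and 201 in chow livers. The lowest NASH liver was well above the highest chow liver, and the log2 fold change was 2.65 ± 0.24 (limma adjusted p = 3.61e-05). Cdkn2c, which encodes the CDK4 and CDK6 inhibitor p18, had 781, 555 and 746 in NASH livers and 241, 246 and 179 in chow livers, without overlap (log2 fold change 1.64 ± 0.18, limma adjusted p = 8.90e-05). Cdkn1b, which encodes p27, had 1159, 1155 and 1282 in NASH livers and 970.5, 1097 and 1165 in chow livers, which overlap. Cdkn2a, the p16 and p19 gene, had 41.3, 5.03 and 42.6 in NASH livers and 39.2, 28.1 and 77.9 in chow livers, also overlapping, and NASH library 2 was well under all the others. Neither of these was called, and the 95% confidence interval for Cdkn2a ran from -2.61 to 0.58 on the log2 scale.

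**Figure D2:**
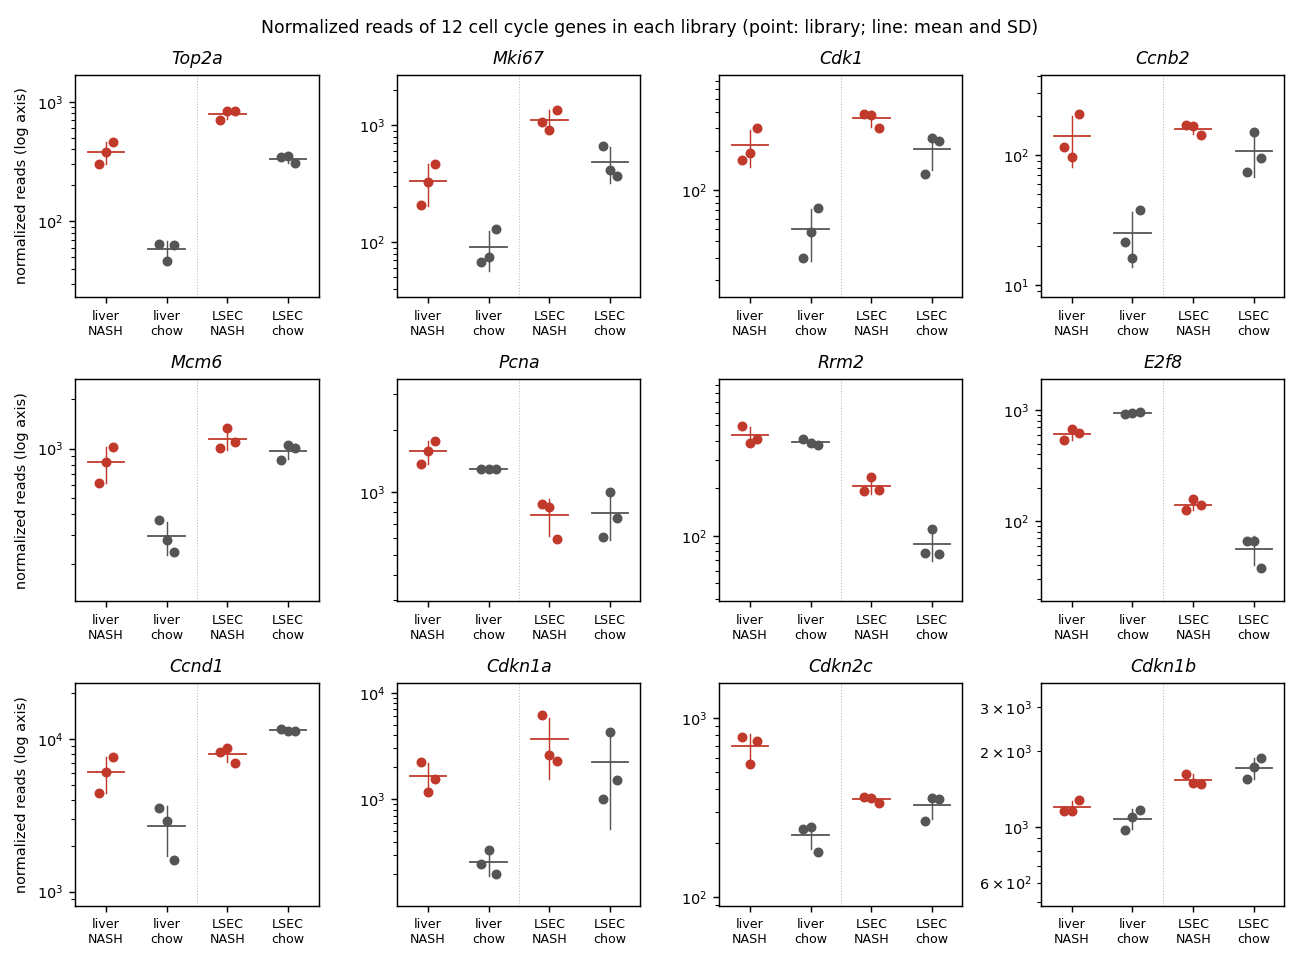
Normalized reads of 12 members in each library on a log axis, with group mean and SD, NASH left of chow in liver and in LSEC. Top2a separates the groups in both tissues, Ccnd1 is higher in NASH liver and lower in NASH LSEC, and E2f8 is lower in NASH liver and higher in NASH LSEC.

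The NASH livers were not alike in these genes. Among the 37 members other than the CDK inhibitors, NASH library 3 was the highest NASH liver for 32 and NASH library 1 the lowest for 28. Summed over the 20 mitotic members, NASH libraries 1, 2 and 3 had 2107, 2588 and 3629 normalized reads, against 699, 780.2 and 927 in the chow livers. The inhibitors followed another order, with 4219, 2897 and 3629 in NASH livers and 1496, 1707 and 1623 in chow livers. The 15 macrophage markers summed to 99541, 96039 and 149650 in the NASH livers and 47460, 53643 and 69130 in the chow livers, highest in the same NASH library 3. T and NK cell markers summed to 1466, 1745 and 1993 in the NASH livers, stellate cell and fibroblast markers to 66472, 71237 and 93330, and neutrophil markers to 1039.9, 1076 and 1389.9, each in the same order of libraries as the mitotic sum. Other lists did not follow that order. Dendritic cell markers summed to 3973, 3944 and 5091 in the NASH livers and cholangiocyte markers to 31261, 18205 and 35761. B cell and plasma cell markers summed to 11874, 13968 and 12227, and erythroid markers to 3894, 4869 and 3398. Most of the B cell and plasma cell sum came from Sdc1 alone, at 9873, 10879 and 8788, so its order is mainly that of Sdc1. The hepatocyte markers summed to 4189400, 3819000 and 3542600 in the NASH livers and the endothelial markers to 36243, 35595 and 33850, both lowest in library 3. A link between these orders and the mitotic sum was not tested. Without NASH library 3, 29 members still rose.

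**Figure D3:**
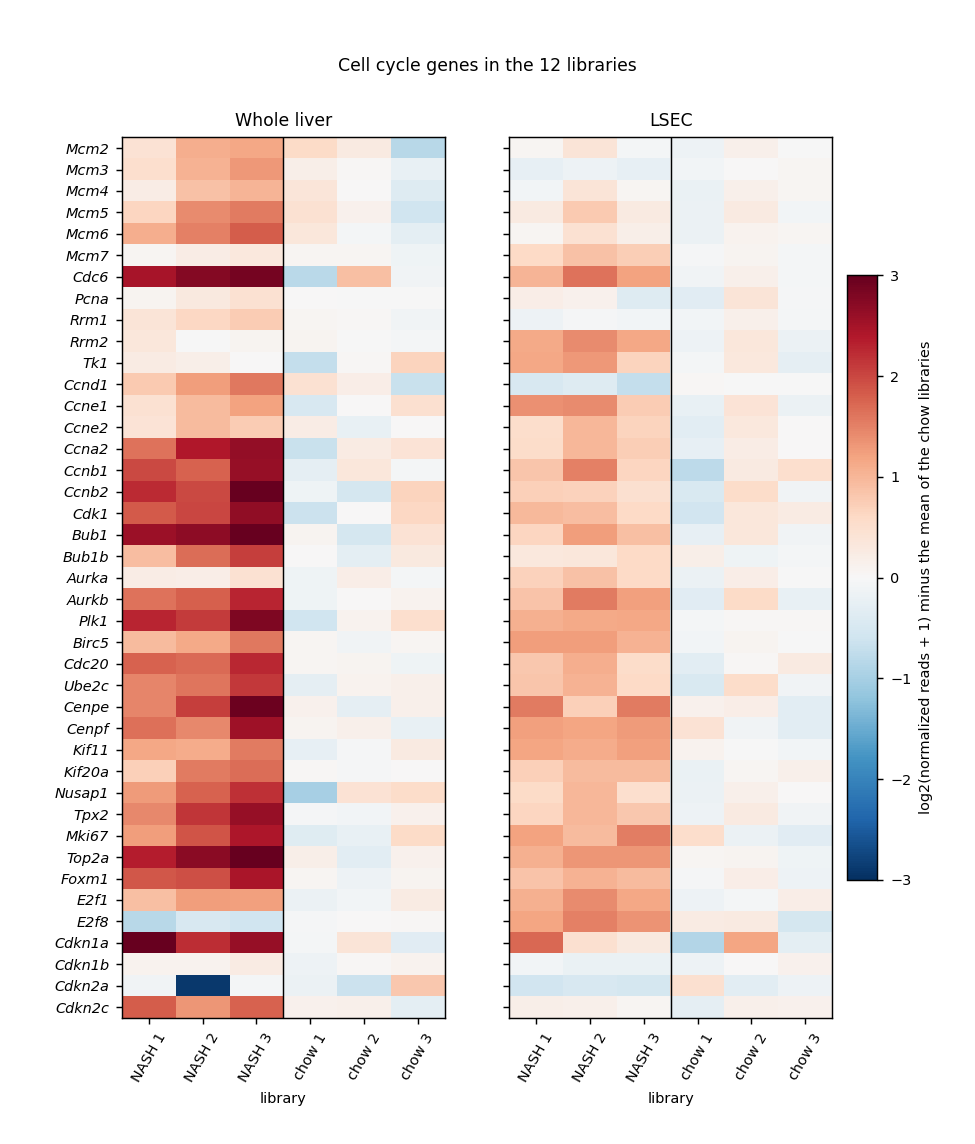
Log2(normalized reads + 1) of each member in each of the 12 libraries, less the mean of the chow libraries of the same tissue, NASH left of chow. In liver the members are mostly strongest in NASH library 3, and in LSEC the colours are paler, with Ccnd1 below the chow mean in all 3 NASH libraries.

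Levels per kilobase of annotated exon show how far apart the members lie in liver. Ccnd1 averaged 1282 normalized reads per kilobase in NASH livers and 569.6 in chow livers. Pcna averaged 657 per kilobase in NASH and 539.6 in chow, and Cdkn1a 467 in NASH and 73.4 in chow. Mitotic genes were far lower, with Cdk1 at 44.8 per kilobase in NASH and 10.1 in chow, and Cenpf at 3.58 in NASH and 0.877 in chow. E2f8, at 112 per kilobase in NASH and 174 in chow, stood above every mitotic member in both groups. Exon length is the union over annotated transcripts, which can understate the level of a gene with long unused exons.

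Beyond the members, 140 further cell cycle genes were grouped by role. In NASH liver 22 of 40 further replication genes rose and 1 fell, with a median log2 fold change of 0.51. Claspin gene Clspn had 43.9 ± 16.9 normalized reads in NASH livers and 5.13 ± 0.808 in chow livers (SD, n = 3), and Gins2 and Uhrf1 rose by 2.22 and 2.46. The gene that fell was Mcm10, a replication initiation factor, with 3139.8 ± 220.0 in NASH livers and 6573 ± 229 in chow livers (SD, n = 3) and an effect of -1.07 ± 0.08 (limma adjusted p = 1.73e-05). Of 55 further mitotic genes 41 rose and 3 fell, with a median of 1.60. The checkpoint gene Mad2l1 rose by 1.60, the condensin gene Ncapg2 by 1.93 and the separase gene Espl1 by 2.35, while the cyclin F gene Ccnf fell by 1.09, the securin gene Pttg1 by 0.41 and Cks2 by 0.34. With scaling to total reads 1 of the 55 was called lower, and the effects of Pttg1 and Cks2 were 0.01 and 0.07, above 0.

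Of 25 genes of G1 control 5 rose and 4 fell in liver, shares near or below those of all liver genes (25% higher and 21% lower), with a median of 0.03. Rbl1, the pocket protein p107, rose by 1.52, and E2f2 and Ccnd2 by 1.57 and 0.40. Rbl2, the pocket protein p130 that represses cell cycle genes in resting cells, fell by 0.76, with Ccnd3 at -0.94 and Tfdp2 at -0.85. Of 20 further inhibitors and p53 targets 8 rose and 2 fell. The p53 targets Gadd45a, Eda2r and Phlda3 rose by 3.16, 2.24 and 2.20 on the log2 scale, beside Cdkn1a at 2.65, and Gadd45b and Tob1 fell by 0.64 and 0.41. With scaling to total reads 3 of the 25 G1 genes and none of the 20 inhibitors and p53 targets were called lower, with Tob1 at 0.00 and Gadd45b at -0.23. Gadd45a had 570.0, 423 and 461 normalized reads in NASH livers and 41.5, 72.3 and 49.2 in chow livers, with no overlap. It shares 337 exon bases with E230016M11Rik on the opposite strand, which rose by 1.83. Gins2 shares 2758 of 4097 exon bases with Gse1 on the opposite strand, Rbl2 693 with Aktip and Ccnd3 361 with Bysl.

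Markers of several cell types moved with the members in NASH liver. Of 15 hepatocyte markers none rose (none by DESeq2 either) and 11 fell, or 14 by DESeq2 and 8 with scaling to total reads, with a median of -1.01. Markers of cell types that rose were 11 of 15 for macrophages (2 fell), 9 of 13 measured for T and NK cells, 9 of 10 for dendritic cells, 9 of 9 measured for neutrophils, 8 of 12 for stellate cells and fibroblasts and 8 of 8 for cholangiocytes. B cell and plasma cell markers had 1 higher and 1 lower of 10, with a median of -0.44. Of 3 measured erythroid markers none rose and 1 fell, with a median of -0.71. Endothelial markers had 1 higher and 5 lower of 15, or 7 higher and 3 lower with scaling to total reads. Of all liver genes 25% were higher and 21% lower, or 47.2% and 5.41% with that scaling. The 7 endothelial markers higher under that scaling are thus near the share of all genes. The macrophage gene Lyz2 had 24417, 20159 and 37990.0 normalized reads in NASH livers and 6109, 6730.1 and 10224 in chow livers. For T and NK cells the summed level was 1466 to 1993 in NASH livers and 450.2 to 939.6 in chow livers, and for cholangiocytes 18205 to 35761 in NASH and 2273 to 2940.4 in chow. Most of the cholangiocyte sum came from Spp1 alone, at 17006 to 33266 in NASH livers and 1717 to 2350 in chow livers. The part of these cells in the rise of the cell cycle genes was not tested.

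**Figure D4:**
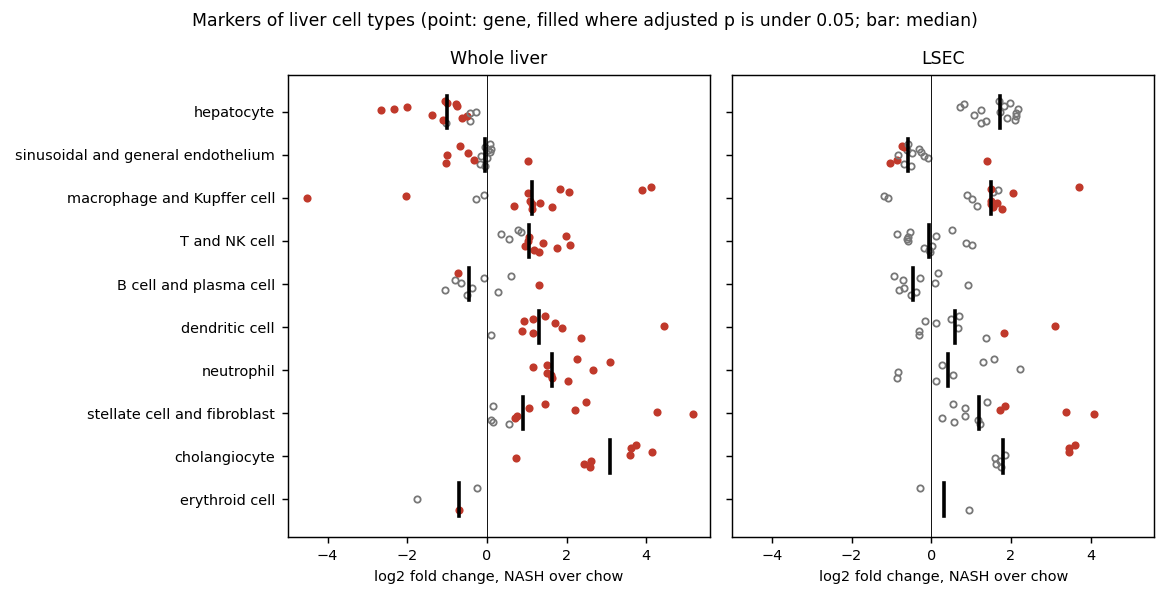
Log2 fold change of NASH over chow for the markers of each liver cell type in whole liver and in LSEC, filled where called, with the list median as a bar. Hepatocyte markers lie left of 0 in liver, and macrophage markers lie mostly right of 0 in both tissues.

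In NASH LSEC, 15 of the 41 members rose and none fell by limma, while 8.11% of all LSEC genes were called, 5.24% higher and 2.86% lower. At an unadjusted limma p under 0.05 there were 28 members in either direction, and the share of all genes at that level was not counted. The members' median log2 fold change was 0.83, against 6.78e-05 over all 16273 genes. Mitotic genes accounted for 9 of the 15, replication genes for 3 (Mcm7, Cdc6 and Rrm2) and transcription factors for 3 (Foxm1, E2f1 and E2f8), and no inhibitor passed. All NASH libraries lay above all chow libraries for 28 members and below them for 3, against 16.5% and 15.4% of all genes. The count depends on the test and on each library. DESeq2 on the recovered reads called 23 members higher and 1, Ccnd1, lower, beside 9.86% of all genes higher, and scaling to total reads gave 18 higher and none lower, beside 7.15% and 1.68% of all genes. At a threshold of 0.01, Top2a was the member that remained, and leaving out a library gave 9 calls without chow library 1, 11 without chow library 2, 1 each without chow library 3, NASH library 1 or NASH library 2, and none without NASH library 3. In those fits the log2 fold change of Mki67 ran from 1.06 to 1.49 and that of Top2a from 1.18 to 1.33.

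Replication genes were split in LSEC. Rrm2 had 193, 235 and 195 normalized reads in NASH LSEC, against 78.3, 109.9 and 76.8 in chow LSEC, with every NASH library higher (log2 fold change 1.24 ± 0.23, limma adjusted p = 0.0253). Cdc6 had 81.2, 123 and 91.1 in NASH LSEC and 36.6, 43.5 and 37.9 in chow LSEC, and Mcm7 374, 452 and 411 in NASH LSEC and 241, 261 and 234 in chow LSEC. Both rose without overlap, by 1.28 and 0.74. Tk1 had 157, 172 and 112 in NASH LSEC and 66.9, 87.0 and 57.3 in chow LSEC, also without overlap, but was not called (log2 fold change 1.05 ± 0.27, limma adjusted p = 0.0619). It passed with DESeq2 (adjusted p = 0.00764) and with scaling to total reads (limma adjusted p = 0.0409). The other helicase subunits had small effects, with Mcm2 at 0.13, Mcm4 at 0.12, Mcm5 at 0.44 and Mcm6 at 0.23, none called and all with overlapping groups. Mcm3 had 1558, 1659 and 1548 in NASH LSEC and 1746, 1863 and 1939.8 in chow LSEC, all NASH libraries lower, with an effect of -0.22 ± 0.10 that was not called (limma adjusted p = 0.237). Pcna and Rrm1 were at -0.02 and -0.10, and both signs turned positive with scaling to total reads.

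For 19 of the 20 mitotic members every NASH LSEC library was above every chow library, Ccnb2 being the exception, and 9 were called, with a median log2 fold change of 0.90. Top2a had 703, 843 and 838 normalized reads in NASH LSEC, against 346, 355 and 305 in chow LSEC. The lowest NASH library was far above the highest chow library, with a log2 fold change of 1.24 ± 0.14 (limma adjusted p = 0.00762). Mki67 had 1078, 908 and 1359.9 in NASH LSEC and 671, 415 and 367 in chow LSEC, a log2 fold change of 1.23 ± 0.26 (limma adjusted p = 0.035). Kif11 had 248, 237 and 256 in NASH LSEC and 117, 108 and 103 in chow LSEC (log2 fold change 1.17 ± 0.17). Plk1, Birc5, Cenpe, Cenpf, Kif20a and Tpx2 rose by 1.13, 1.18, 1.28, 1.22, 0.87 and 0.81.

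Cdk1 and its cyclins did not pass in LSEC. Cdk1 had 389, 383 and 301 normalized reads in NASH LSEC and 133, 251 and 237 in chow LSEC, with a log2 fold change of 0.83 ± 0.27 and a 95% confidence interval of 0.19 to 1.47 (limma adjusted p = 0.111). Its NASH libraries were all higher, and chow library 1 was well below the other chow libraries. Ccnb2 had 168, 166 and 142 in NASH LSEC and 74.2, 150.1 and 95.2 in chow LSEC, which overlap. Ccna2 and Ccnb1 were at 0.76 and 1.00, and Aurkb and Bub1 at 1.21 and 0.93, none called. In the authors' deposited table Cdk1 had an adjusted p of 0.049 and Ccna2 of 0.0098 in LSEC. There Aurkb was at 0.013 and Bub1 at 0.0354, while Ccnb1 and Ccnb2 were at 0.248 and 0.243.

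The G1 cyclins and transcription factors of LSEC included 3 factors that rose and a cyclin, Ccnd1, whose lower values stopped short of the threshold. E2f8 had 127, 158 and 140.4 normalized reads in NASH LSEC, against 65.8, 66.4 and 37.9 in chow LSEC (log2 fold change 1.34 ± 0.29, limma adjusted p = 0.0381). Every NASH library was higher, the reverse of its order in liver. E2f1 had 208, 264 and 220.3 in NASH LSEC and 88.8, 94.7 and 114 in chow LSEC, and Foxm1 239, 272 and 253 in NASH LSEC and 127, 151 and 118 in chow LSEC, and both rose, by 1.21 and 0.95. Ccnd1 had 8215, 8742 and 6902 in NASH LSEC, against 11626, 11244 and 11251 in chow LSEC. All NASH libraries were lower and the chow libraries lay close together, but its effect of -0.52 ± 0.13 was not called (limma adjusted p = 0.0514). The authors' deposited table gives Ccnd1 an adjusted p of 0.00434. Ccne1 and Ccne2 were at 1.19 and 0.73, not called. With DESeq2 Ccne1 passed (adjusted p = 0.0242) and Ccne2 did not (adjusted p = 0.141).

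No inhibitor passed in LSEC by limma or DESeq2, and none had an unadjusted limma p under 0.05. Cdkn1a had 6177, 2628 and 2293 normalized reads in NASH LSEC and 1012, 4244 and 1531 in chow LSEC. Its groups overlapped widely, with 1 library in each group far above the others, and the 95% confidence interval of the log2 fold change was -0.51 to 2.17. Cdkn2c had 361, 357 and 336 in NASH LSEC and 265, 357 and 353 in chow LSEC, with an interval of -0.27 to 0.52. Cdkn1b was at -0.16 with overlapping groups. Cdkn2a had 30.0, 31.7 and 30.7 in NASH LSEC and 62.7, 35.9 and 39.9 in chow LSEC, all NASH libraries lower, with an interval of -1.27 to 0.22. Per kilobase of exon, Ccnd1 averaged 1689 normalized reads in NASH LSEC and 2415 in chow LSEC, Cdkn1a 1041 in NASH LSEC and 637 in chow LSEC, and Ccnb1, the lowest member in both groups, 8.56 in NASH LSEC and 4.32 in chow LSEC.

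The further lists are read against the 5.24% of all LSEC genes that were higher and the 2.86% that were lower, and the counts for G1 genes, inhibitors and p53 targets lie near or below these shares. In LSEC, 4 of the 40 further replication genes rose, with Ticrr at 3.08 ± 0.32, Uhrf1 at 1.48 and Hells at 1.34. Ticrr, which starts origin firing, had 48.7 ± 0.651 normalized reads in NASH LSEC and 4.90 ± 0.476 in chow LSEC (SD, n = 3). Of 55 mitotic genes 12 rose, among them Kif15 at 1.21, the shugoshin gene Sgol2a at 1.15 and Ncapg2 at 1.08, and the list's median was 0.84. Of 25 G1 genes Myc alone rose, with 5661, 1944 and 2351 normalized reads in NASH LSEC and 342, 942 and 624 in chow LSEC, a wide spread among the NASH libraries. Of 20 inhibitors and p53 targets none rose by limma or DESeq2, 3 had an unadjusted limma p under 0.05, and Sesn1 fell by 0.90. DESeq2 called 2 of the 20 lower, and its share of all genes called lower was not counted.

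Markers of other cells moved in the LSEC libraries too. Of 15 macrophage markers 8 rose, and their sum was 69349, 87532 and 70795 normalized reads in NASH LSEC and 43255, 29950 and 15413 in chow LSEC, although CD11b-positive cells were to be removed. Of 15 endothelial markers 1 rose and 4 fell, while 1 was lower with scaling to total reads and 8 by DESeq2. Stellate cell and fibroblast markers rose in 4 of 12 cases, cholangiocyte markers in 3 of 8 and dendritic cell markers in 2 of 10. By DESeq2 6 of 12, 8 of 8 and 2 of 10 were higher. Of all LSEC genes 5.24% were higher by limma and 9.86% by DESeq2. No marker of T and NK cells, B cells or neutrophils was called by limma or DESeq2, with 1, 0 and 2 of them at an unadjusted limma p under 0.05. The neutrophil gene Mpo was at 0 in chow library 2. The 15 hepatocyte markers summed to 40411, 52218 and 85194 in NASH LSEC and 15543, 94624 and 7275 in chow LSEC, and the groups overlapped. Chow library 2, the highest of the chow LSEC in these hepatocyte genes, was also the highest chow library for 26 of the 37 members other than inhibitors. Chow library 1, the highest of the chow LSEC in macrophage genes, was the lowest chow library for 25 of them. Among the NASH LSEC, library 3 was the highest in hepatocyte genes but the highest for only 5 of these members and the lowest for 15. NASH library 2 was the highest NASH library for 27. It was also the highest in macrophage genes and stood further apart in the 8 cholangiocyte markers, which summed to 10473, 47871 and 17681 in NASH LSEC and 4155, 4827 and 9415 in chow LSEC. Most of that sum came from Spp1 alone, at 9393, 42429 and 15403 in NASH LSEC and 3630, 4231 and 8507 in chow LSEC. The part of these cells in the members' values was not tested.

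The effect of NASH was then compared between tissues by subtracting the LSEC log2 fold change from that of liver, over the 15766 genes in both tables. It was called for 17 of the 41 members, 15 with a higher and 2 with a lower value in liver, beside 19.5% of all genes, 11.5% higher and 7.99% lower. Rising in both tissues were 12 members (Cdc6, Plk1, Birc5, Cenpe, Cenpf, Kif11, Kif20a, Tpx2, Mki67, Top2a, Foxm1 and E2f1), and 19 rose in liver without being called in LSEC. Of these 19, 11 had a called difference, namely Bub1, Ccnb2, Ccnd1, Cdkn2c, Ccna2, Cdk1, Mcm6, Mcm3, Bub1b, Cdc20 and Rrm1. Of all genes 25% rose in liver and 5.24% in LSEC, and the shares rising in both or in liver alone were not counted. At a threshold of 0.01 the number of members with a called difference was 6, and without NASH liver library 3 it was 10.

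Among the G1 cyclins, Ccnd1 had effects of opposite sign in the tissues. Its difference was 1.73 ± 0.30 (limma-based t test of the difference, adjusted p = 0.00165), from 1.21 in liver and -0.52 in LSEC. For Cdkn2c the difference was 1.51 ± 0.25 (adjusted p = 0.00056, same limma-based test). Among mitotic genes the difference was 1.82 ± 0.46 for Bub1 and 1.80 ± 0.48 for Ccnb2, and for Top2a, called in both tissues, it was 1.44 ± 0.26 (limma-based adjusted p = 0.00151). Mcm6 and Mcm3 differed by 1.25 and 1.17. In the other direction, E2f8 differed by -1.98 ± 0.31 (limma-based adjusted p = 0.00248), and Rrm2 by -1.10 ± 0.26 (limma-based adjusted p = 0.0131).

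For several members no difference was detected. The 95% confidence interval of the difference was -0.62 to 0.70 for Birc5, -0.50 to 0.72 for Kif11 and -0.65 to 0.49 for E2f1, on the log2 scale. For Mki67 it was -0.24 to 1.50, which spans both 0 and values over 1. Cdkn1a had a difference of 1.81 ± 0.62 (limma-based adjusted p = 0.0672), which was not called, with an interval of 0.43 to 3.20. The tables were normalized separately, so levels were not set against each other across tissues.

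**Figure D5:**
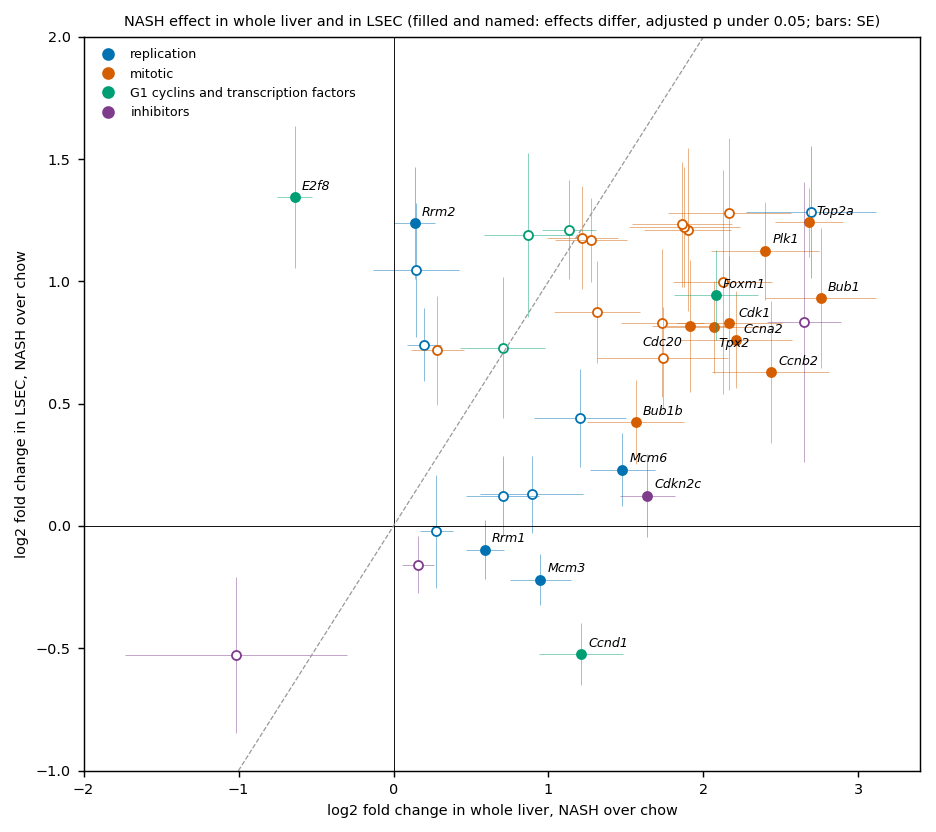
Log2 fold change of NASH over chow in whole liver (x axis) and in LSEC (y axis) for the 41 members with standard errors, coloured by role, filled and named where the 2 effects differed. Most named genes lie below the dashed line of equal effects, with Ccnd1 at 1.21 in liver and -0.52 in LSEC, and E2f8 and Rrm2 above it.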

How the data were processed

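The submitters' processing notes name the aligner STAR, the counter HTSeq, FastQC, Seurat and DESeq2, and build mm10. Versions, settings and whether counting used strand were not given in the sources used here. Each tissue has 1 deposited table, with the authors' normalized read signal per library, their log2 fold change and their p-value and adjusted p-value. Dividing each library's deposited signal by its smallest step gave whole reads for 100% of values within 0.01; edgeR (4.0.16) and DESeq2 (1.42.0) were run on these reads as alternatives. Each tissue was fitted alone with limma (3.58.1, R 4.3.3; trend, no filter) on log2(normalized reads + 1), Benjamini-Hochberg adjusted over all genes. Tissue effects were compared with a t test of the difference using Satterthwaite degrees of freedom, over genes in both tables. The limma fits and the test of the difference were tested on simulated data in which few genes changed. In liver 46% of genes were called, so that simulation cannot speak to the choice of scaling. Copies of a library were looked for: chi-square per degree of freedom between replicates was 16.4 to 96.23. In liver, same-numbered libraries did not deviate together (r = -0.0135, -0.0157 and 0.0981), so the numbers were not taken as pairs. Gene coordinates and exon lengths came from GENCODE M21, which held all 41 members. The members, the further gene lists and the markers were chosen with earlier results of these data known. All 41 members are named; of the 140 further genes, up to 3 called genes per list, tissue and direction with the smallest adjusted p, and of the markers those with the highest mean level, where a result needs them. Exons of 14 members overlap another gene's, 12 on the opposite strand.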

Additional observations from a re-analysis of the deposited data

Results flagged for a closer look

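For 17 members the effect of NASH differed between whole liver and LSEC by the test of the difference itself. On the log2 scale, liver minus LSEC, the mitotic genes Bub1, Ccnb2, Ccna2, Top2a, Cdk1, Plk1, Tpx2, Bub1b and Cdc20 differed by 1.82, 1.80, 1.45, 1.44, 1.34, 1.27, 1.26, 1.14 and 1.09. Of the replication genes, Mcm6 differed by 1.25, Mcm3 by 1.17 and Rrm1 by 0.685, while Rrm2 differed by -1.10. Foxm1 differed by 1.13, Ccnd1 by 1.73, Cdkn2c by 1.51 and E2f8 by -1.98.

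Bub1, Ccnd1, Cdkn2c, Mcm3, Mcm6, Rrm1, Top2a and E2f8 kept their difference in all 12 fits that left out 1 library. Cdk1 lost its call in 10 of those 12 fits, and Plk1, Cdc20 and Bub1b lost theirs in 8 each.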

How the results depend on the processing

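In liver the count of 32 called members stayed between 27 (with a fold threshold) and 38 (scaling to total reads) under every alternative run. Leaving out 1 library gave 30 to 34, and a replicate block 31. In LSEC the count of 15 became 24 with DESeq2 and 1 at a threshold of 0.01, and ran from 0 to 11 with 1 library left out; edgeR gave 14. No paired analysis was possible for LSEC because its columns carry no replicate number. The count of 17 differing members became 6 at a threshold of 0.01, ran from 10 to 17 with 1 library left out, and was 16 with edgeR, 20 with a normal p and 22 with scaling to total reads. Some small effects changed sign. Scaling to total reads turned Pcna and Rrm1 in LSEC to 0.12 and 0.042. With 1 library left out, Tk1 in liver ran from -0.22 to 0.48, and in LSEC Mcm4 from -0.0032 to 0.22, Pcna from -0.19 to 0.17 (0.16 without NASH library 3) and Cdkn2c from -0.0153 to 0.198. The cause of these shifts was not tested. A fit that leaves 2 libraries in a group has less of each gene's own spread to go on, beside the spread shared by all genes. LSEC libraries held fewer reads than liver libraries, 18527017 to 19402863 each.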
